A study of Homo sapiens with 6 samples.

Results

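The 9 genes described here encode proteins of the tight junction: the claudins CLDN1, CLDN3, CLDN4, CLDN7, CLDN12 and CLDN23, occludin (OCLN), the scaffold protein TJP1 (also called zonula occludens protein 1) and the adhesion molecule F11R (also called JAM-A). They were chosen by name with their counts and levels in all 3 groups already known, out of 19493 Ensembl genes that had a value in every library. All 9 were found by their Ensembl identifiers, and all 9 passed the filter on low values (1 cRPKM in at least 2 libraries), as did 11926 genes in all. Because of that choice, the changes of the 9 genes are a description of these libraries, and their calls carry no weight as an independent test.

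HaCaT cells are human keratinocytes that grow as an immortal line. The cells of every group, control included, carried the photolyase of the marsupial Potorous tridactylus, an enzyme that splits cyclobutane pyrimidine dimers when visible light drives it. In the active-photolyase group, cells received 15 J/m2 of UVC (254 nm), then 2 h of white light that switched the enzyme on, with harvest 6 h after irradiation. The UVC group had the same dose and harvest time with the enzyme inactive, and the control group was not irradiated and also had inactive enzyme. Each group had 2 libraries. White light was given only in the active-photolyase group, so the light itself and the activity of the enzyme cannot be told apart. The labels do not say whether replicates came from separate cultures, so p-values and SEs measure the library-to-library spread alone, and that spread may be technical.

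Tight junctions seal the space between neighbouring epithelial cells. Claudins are short proteins that cross the membrane several times and polymerise into the strands that set which ions and solutes may pass. Occludin lies in the same strands, F11R is an immunoglobulin-like protein that brings membranes and polarity proteins together, and TJP1 is a large cytoplasmic scaffold that ties the strands to the actin cytoskeleton. In the epidermis the seal lies in the granular layer, and mice without claudin-1 die soon after birth from loss of water through the skin. TJP1 holds many claudins through a domain that recognises the last residues of their tail, and for most claudins these are a tyrosine and a valine.

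The coding ends of 6 of the members show which of these carry that tail. Those of CLDN23, OCLN and TJP1 are not shown. The last 30 coding bases, stop codon included, are given on the coding strand from GENCODE release 29 (GRCh38), with the last pair of sense codons in capitals.
CLDN1: gcaccttccagcgggaaagacTACGTGtga
CLDN3: acaggctacgaccgcaaggacTACGTCtaa
CLDN4: cgctctgctgctgccagcaacTACGTGtaa
CLDN7: aagtccaactcttccaaggagTATGTGtga
CLDN12: gacattccagtagtttcacacACCACTtaa
F11R: ttcaaacagacctcgtcattcCTGGTGtga
CLDN1, CLDN3, CLDN4 and CLDN7 end in a tyrosine codon and a valine codon. CLDN12 ends in other codons, and F11R has a leucine codon before its valine. These stretches lie, in the order given, at chr3:190308277-190308306 (minus strand), chr7:73769387-73769416 (minus), chr7:73831802-73831831 (plus), chr17:7260374-7260403 (minus), chr7:90413382-90413411 (plus) and chr1:160998871-160998900 (minus).

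The members differ widely in the size of their genes. In GENCODE release 29 the principal transcript of CLDN3 spans 1.27 kb, that of CLDN4 1.83 kb, that of CLDN23 2.17 kb and that of CLDN7 2.58 kb. CLDN3, CLDN4 and CLDN23 have 1 exon each, and CLDN7 has 4. CLDN12 spans 12.6 kb with its whole coding sequence in 1 of 3 exons, and CLDN1 spans 16.8 kb with 4 exons. On the other side, F11R spans 26.1 kb (10 exons), OCLN 65.8 kb (9 exons) and TJP1 123 kb (28 exons). These spans are those of 1 principal transcript per gene. Over all GENCODE transcripts of a gene, CLDN4 spans 33.2 kb, CLDN12 130 kb and TJP1 269 kb. By that measure CLDN4 is longer than F11R and CLDN12 longer than OCLN, so both are short by their principal transcript only. The reads themselves were aligned to the older hg19 build, so the spans do not describe the authors' gene models.

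Levels are given as scaled cRPKM, which is the deposited corrected RPKM (reads per kilobase of an effective gene length, scaled to the library's total) divided by the library's TMM factor. TMM, the trimmed mean of M values, takes most genes as unchanged and so sets every change relative to the bulk of the transcripts. Total counts ran from 57669389 to 70005705 per library, and mitochondrially encoded genes took 3.21 and 4.09% of counts with active photolyase, 5.13 and 5.28% after UVC and 3.32 and 3.92% in control. The keratinocyte label fitted the data, with KRT14 at a mean of 6055 scaled cRPKM with active photolyase, 4884 after UVC and 5934 in control. The summed level of 8 keratinocyte markers was 29716 to 29809 with active photolyase, 18223 to 18678 after UVC and 30674 to 31652 in control. Markers of endothelium (sum at most 4.70) and melanocytes (at most 2.23) stayed near the floor, with TYR at 0 in every library, and fibroblast markers summed to at most 8.91. Of 5 immune markers, CD68 and CD74 made up most of a sum of 188 to 198 with active photolyase, 181 to 183 after UVC and 132 to 146 in control, while PTPRC, the common leukocyte gene, averaged at most 0.034 in a group. Of 5 markers of simple epithelium 4 were tested, and the summed level of the list was 1743 to 1868 with active photolyase, 1551 to 1565 after UVC and 2563 to 2666 in control. The part of these marker sums and of the mitochondrial share in the members' changes was not tested.

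CLDN4 was the most abundant member in every group. It had 1142 and 1143 scaled cRPKM with active photolyase, 664 and 637 after UVC and 1117 and 1011 in control. CLDN7 followed with 558 and 559.6 with active photolyase, 425.5 and 409.9 after UVC and 489 and 483 in control. CLDN1, the claudin whose loss opens the epidermal barrier in mice, came next at 343 and 330.2 with active photolyase, 126 and 126 after UVC and 281 and 278 in control. CLDN1 was lowest after UVC and highest with active photolyase in both scaled and deposited cRPKM. CLDN7 had that order in scaled cRPKM, while its deposited cRPKM was lowest in control. For CLDN4 the active-photolyase and control libraries were close and the UVC libraries stood apart below both.

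F11R came after these 3 in every group, at 159 and 159 scaled cRPKM with active photolyase, 111 and 113 after UVC and 176 and 168 in control. OCLN had 31.1 and 32.4 with active photolyase, 5.16 and 5.63 after UVC and 52.5 and 51.96 in control. TJP1 had 16.6 and 16.6 with active photolyase, 4.53 and 4.85 after UVC and 37.2 and 39.0 in control. For OCLN and TJP1, control was at the top, UVC at the bottom and active photolyase between them. F11R had this order in scaled cRPKM only. In deposited cRPKM its active-photolyase libraries (151.58 and 151.9) lay within the range of control (156.18 and 148.79).

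The remaining claudins were scarce in every group. CLDN12 had 8.75 and 8.62 scaled cRPKM with active photolyase, 5.10 and 5.51 after UVC and 7.01 and 6.20 in control. CLDN23 had 11.9 and 12.4 with active photolyase, 17.5 and 17.4 after UVC and 4.06 and 3.75 in control. CLDN3, which is mainly known from gut and other simple epithelia, had 4.36 and 3.92 with active photolyase, 4.13 and 3.92 after UVC and 1.65 and 1.85 in control. In scaled cRPKM, CLDN23 and CLDN3 were thus the members with their lowest level in control, and for CLDN3 the active-photolyase and UVC libraries overlapped. In deposited cRPKM, the means of CLDN7 (431) and CLDN12 (5.85) were also lowest in control. CLDN3 rested on 334 and 289 reads with active photolyase, 327 and 306 after UVC and 117 and 131 in control.

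**Figure D1:**
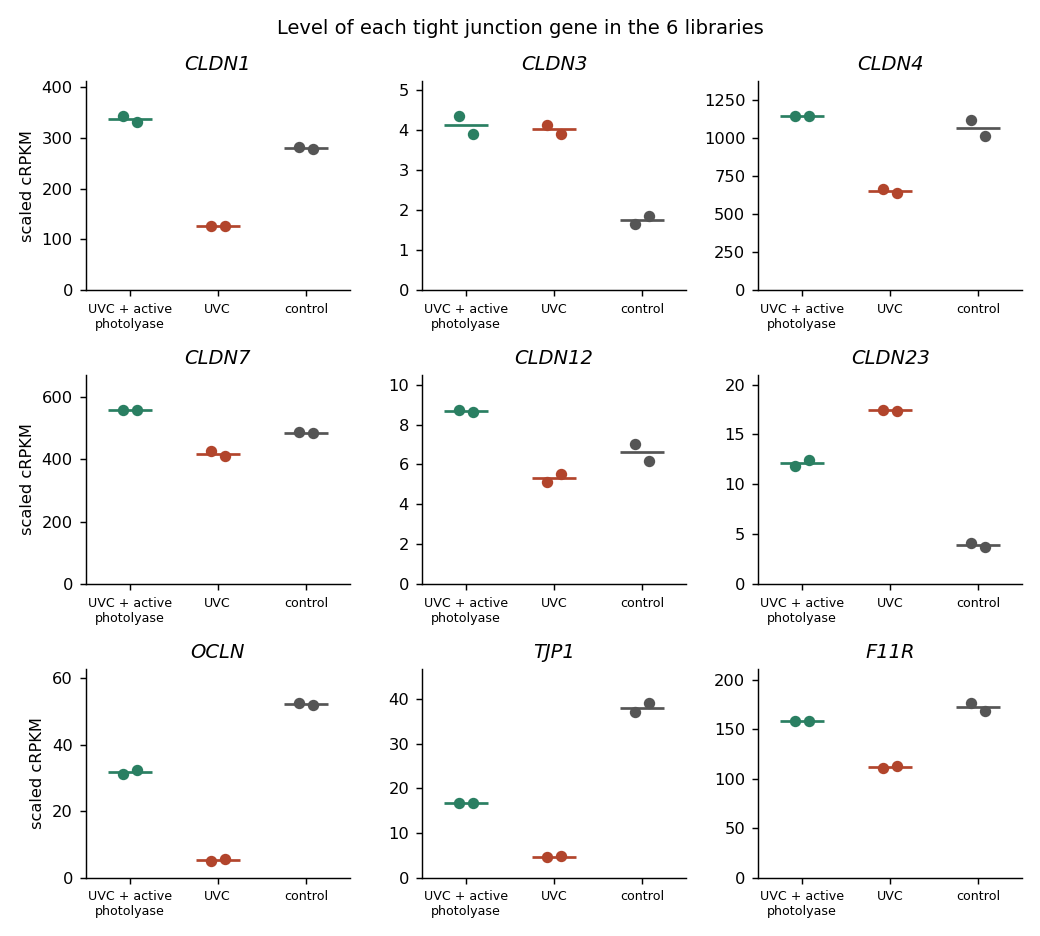
Level of each of the 9 genes (y axis, scaled cRPKM, from 0, a scale of its own in each panel) in the 6 libraries. Points are libraries, horizontal lines the mean of the 2 libraries of a group. OCLN and TJP1 are lowest after UVC, highest in control and between them with active photolyase, while CLDN23 and CLDN3 are lowest in control.

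The order of levels within the list changed after UVC. In control it ran CLDN4, CLDN7, CLDN1, F11R, OCLN, TJP1, CLDN12, CLDN23 and CLDN3, and no neighbours overlapped. After UVC, CLDN23 (17.4 ± 0.0890, SD, n = 2) stood above OCLN (5.39 ± 0.330), whose libraries overlapped those of CLDN12 (5.30 ± 0.288). TJP1 (4.69 ± 0.223) and CLDN3 (4.03 ± 0.154) came last. With active photolyase, OCLN and TJP1 again stood above the 3 scarce claudins. A level set between genes depends on the authors' effective lengths, which came to 4004 bases for CLDN4 and 1049 for CLDN12, against principal transcripts of 1831 and 3565 bases, so the place of these genes in the order is less sure than their changes.

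UVC with inactive photolyase was set against control to show how these transcripts stood after irradiation. OCLN and TJP1 fell most. OCLN kept 10.3% and TJP1 12.3% of its control level, log2 fold changes of -3.27 ± 0.06 and -3.02 ± 0.06 (SE). Among all tested genes 0.989% had a lower log2 fold change than OCLN and 1.27% a lower one than TJP1. CLDN1 fell to 45.0% of control (-1.15 ± 0.05), CLDN4 to 61.2% (-0.71 ± 0.06) and F11R to 65.1% (-0.62 ± 0.05). With library totals these falls were smaller, at -0.74 for CLDN1, -0.29 for CLDN4 and -0.20 for F11R. CLDN23 rose 4.46-fold (2.16 ± 0.07) and CLDN3 2.30-fold (1.20 ± 0.13). In RNA from whole cultures, fewer cells that express a gene and less of its RNA per cell cannot be told apart.

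CLDN7 and CLDN12 had no direction that held under both scalings. With TMM factors CLDN7 was at -0.22 ± 0.05 and CLDN12 at -0.32 ± 0.10, both called, whereas with library totals they were at 0.20 and 0.10, the first called upward. In the deposited cRPKM, CLDN7 had 502 and 485 after UVC against 434 and 427 in control, and CLDN12 had 6.02 and 6.51 after UVC against 6.22 and 5.48 in control. The CLDN12 call was also lost without control replicate 1 (-0.22) and without UVC replicate 1 (-0.26). Library totals moved the median of all genes to 0.42 in this comparison, to -0.34 for active photolyase against UVC and to 0.12 for active photolyase against control.

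By edgeR's quasi-likelihood test with adjustment over all tested genes, 2 members were higher and 7 lower after UVC. Of all tested genes 85.6% were called in this comparison, 42.5% as higher and 43.1% as lower, so being called says little about a member. The median log2 fold change was -0.62 over the 9 members and 0.00 over all tested genes. With library totals, 3 members were higher and 5 lower, and 59.5 and 29.7% of all genes were called in these directions. Falls of at least 2-fold, reached with TMM factors by OCLN, TJP1 and CLDN1 and with library totals by OCLN and TJP1, were called with TMM factors in 18.6% of all tested genes, and rises of that size, reached by CLDN23 and CLDN3, in 9.89%.

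Active photolyase was set against UVC to ask what switching on the enzyme, together with the light, changed. OCLN was 5.89-fold (2.56 ± 0.06) and TJP1 3.55-fold (1.83 ± 0.05) higher with active photolyase than after UVC alone. CLDN1 was 2.67-fold higher (1.42 ± 0.05), CLDN4 1.76-fold (0.81 ± 0.06), CLDN12 1.64-fold (0.71 ± 0.09) and F11R 1.42-fold (0.50 ± 0.05). CLDN23 was lower (-0.52 ± 0.06), the only member called in that direction with TMM factors. CLDN7 was higher by 0.42 ± 0.05 with TMM factors, and with library totals its value was 0.11 and not called. CLDN3 was not called with TMM factors (0.04 ± 0.11) and was called lower with library totals (-0.26). In all, 7 members were higher, 1 lower and 1 not called, against 79.1% of all genes called, 39.2% as higher and 39.9% as lower. With library totals 6 members were higher and 2 lower, and 27.9 and 58.2% of all genes were called in these directions. The members' median was 0.71, and that of all tested genes -0.04.

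Active photolyase was also set against control to ask what difference remained. TJP1 was at 43.7% of control (-1.20 ± 0.05) and OCLN at 60.8% (-0.72 ± 0.05). F11R, at -0.12 ± 0.05, and CLDN4, at 0.10 ± 0.06, were not called, and each was called when 1 control library was left out, F11R at -0.15 without replicate 2 and CLDN4 at 0.18 without replicate 1. With library totals CLDN4 was called at 0.21, and F11R was at -0.01. CLDN1 was above control at 120% (0.27 ± 0.05), CLDN7 at 115% (0.20 ± 0.05) and CLDN12 at 132% (0.39 ± 0.09). CLDN23 (3.10-fold, 1.63 ± 0.07) and CLDN3 (2.37-fold, 1.24 ± 0.13) stayed well above control. Thus 5 members were higher, 2 lower and 2 not called, while 65.8% of all genes were called, 33.0% as higher and 32.9% as lower. With library totals 6 members were higher and 2 lower, and 43.8 and 23.9% of all genes were called in these directions. The median was 0.20 for the members and 0.01 for all tested genes. The 3 comparisons share libraries, so their values for a gene are not independent of each other.

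**Figure D2:**
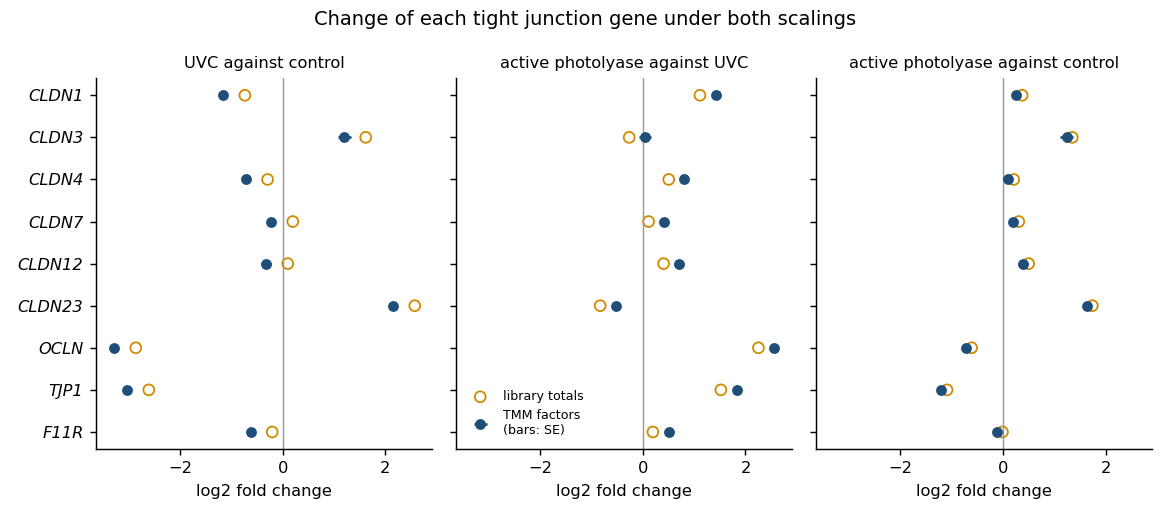
Log2 fold change (x axis) of each member in the 3 comparisons. Filled points with bars are the values with TMM factors and their SE, open circles the values with library totals. CLDN7 and CLDN12 lie on opposite sides of 0 under the scalings for UVC against control, as does CLDN3 for active photolyase against UVC.

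The share of the UVC change that was undone with active photolyase differed between members. It was computed as the log2 fold change against UVC over minus that of UVC against control, for members changed by at least 0.5 with TMM factors. It came to 60.4% for TJP1, 78.1% for OCLN and 81.2% for F11R. For CLDN1 (123%) the value lay beyond the control level. CLDN4 came to 115%, but its difference from control with active photolyase (0.10 ± 0.06) was not called. For CLDN23 it was 24.2%, and for CLDN3 it was -3.50%, so that CLDN3 stayed at its UVC level. Library totals gave 58.3% for TJP1 and 78.8% for OCLN, 96.5% for F11R, 172% for CLDN4, 151% for CLDN1, 32.2% for CLDN23 and 16.3% for CLDN3. With that scaling the UVC changes of CLDN4 (-0.29) and F11R (-0.20) were smaller than 0.5, so their percents are less sure.

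The claudin genes, short by their principal transcripts, were then set against the longer genes OCLN, TJP1 and F11R. This was done within each library, where scaling of a whole library has little effect. The means were taken over deposited cRPKM, before TMM factors. The mean log2(cRPKM + 1) of the 6 claudins was 6.12 and 6.10 with active photolyase, 5.94 and 5.92 after UVC and 5.51 and 5.45 in control. That of OCLN, TJP1 and F11R was 5.42 and 5.45 with active photolyase, 4.18 and 4.25 after UVC and 5.98 and 5.98 in control. The claudin mean minus the other was therefore 0.70 and 0.66 with active photolyase, 1.76 and 1.67 after UVC and -0.48 and -0.53 in control. The 3 groups did not overlap, and active photolyase lay between the others. In deposited cRPKM, the higher claudin mean after UVC than in control rested on CLDN3 and CLDN23. Set across groups, these means also depend on library scaling, which the difference within a library largely avoids. TMM factors were 1.18 and 1.18 after UVC and 0.887 and 0.885 in control. Over the other 4 claudins, a choice made after seeing the data, the claudin mean was 7.68 and 7.67 with active photolyase, 7.16 and 7.15 after UVC and 7.38 and 7.30 in control. The difference from OCLN, TJP1 and F11R then averaged 2.24 with active photolyase, 2.94 after UVC and 1.36 in control, so that the groups kept their order and the sign in control turned. The sign in control also turned when F11R was left out (0.14), since F11R was far more abundant than OCLN and TJP1.

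**Figure D3:**
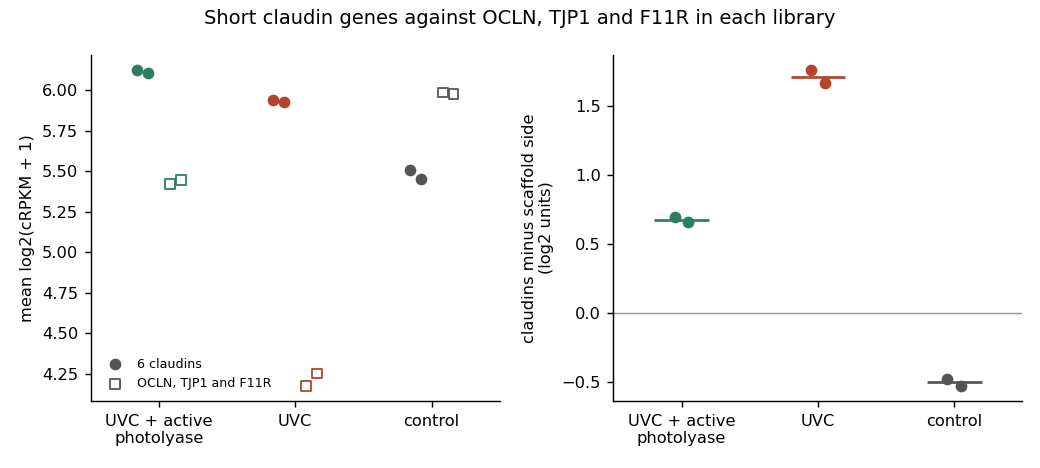
Left, mean log2(cRPKM + 1) of the 6 claudins (filled circles) and of OCLN, TJP1 and F11R (open squares) in each library. Right, the difference of both in each library, with lines at the mean of each group, which is highest after UVC (1.71) and below 0 in control (-0.50).

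Ratios of deposited cRPKM within a library need no scaling and were taken gene by gene. The ratio of CLDN4 to TJP1 was 68.7 and 68.7 with active photolyase, 147 and 131 after UVC and 30.03 and 25.9 in control. That of CLDN1 to OCLN was 11.02 and 10.2 with active photolyase, 24.4 and 22.4 after UVC and 5.36 and 5.36 in control. F11R moved relative to TJP1 in the same direction as the claudins did, with a ratio of F11R to TJP1 of 9.56 and 9.54 with active photolyase, 24.5 and 23.3 after UVC and 4.74 and 4.31 in control. OCLN and TJP1 kept closer to each other: their ratio was 1.87 and 1.95 with active photolyase, 1.14 and 1.16 after UVC and 1.41 and 1.33 in control. Among the claudins, CLDN7 to CLDN1 was 1.63 and 1.69 with active photolyase, 3.38 and 3.26 after UVC and 1.74 and 1.74 in control. Within the summed cRPKM of the 6 claudins, CLDN1 took 16.6 and 16.05% with active photolyase, 10.1 and 10.5% after UVC and 14.8 and 15.6% in control. CLDN4 took more than any other claudin in every library, 53.1 to 58.8% of that sum.

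The span of the principal transcript was then set beside change over all tested genes that had one (11550). After UVC the median log2 fold change against control was 0.38 in the quintile of genes with the shortest span (up to 8.07 kb) and -0.26 in the quintile with the longest (above 75.95 kb). For active photolyase against control these medians were 0.26 and -0.34, and for active photolyase against UVC -0.12 and -0.15. Spearman's correlation between span and change over all these genes was -0.25 for UVC against control, 0.02 for active photolyase against UVC and -0.47 for active photolyase against control. Over the 9 members it was -0.75, 0.72 and -0.75 in the same order, and these are 9 points from the same 6 libraries that share depth and scaling.

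Members whose principal transcripts had a similar span did not move alike. CLDN3, CLDN4, CLDN7 and CLDN23 all lay in the shortest quintile, and after UVC they ran from -0.71 for CLDN4 to 2.16 for CLDN23. In that quintile 11.2% of genes had a lower change than CLDN4 and 97.3% a lower one than CLDN23. CLDN1 and CLDN12 lay in the next quintile, where 9.70% of genes had a lower change than CLDN1. F11R lay in the middle quintile, OCLN in the one above and TJP1 in the longest. There 3.25% of genes changed to a lower value than TJP1 after UVC, and 4.37% did so for active photolyase against control.

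**Figure D4:**
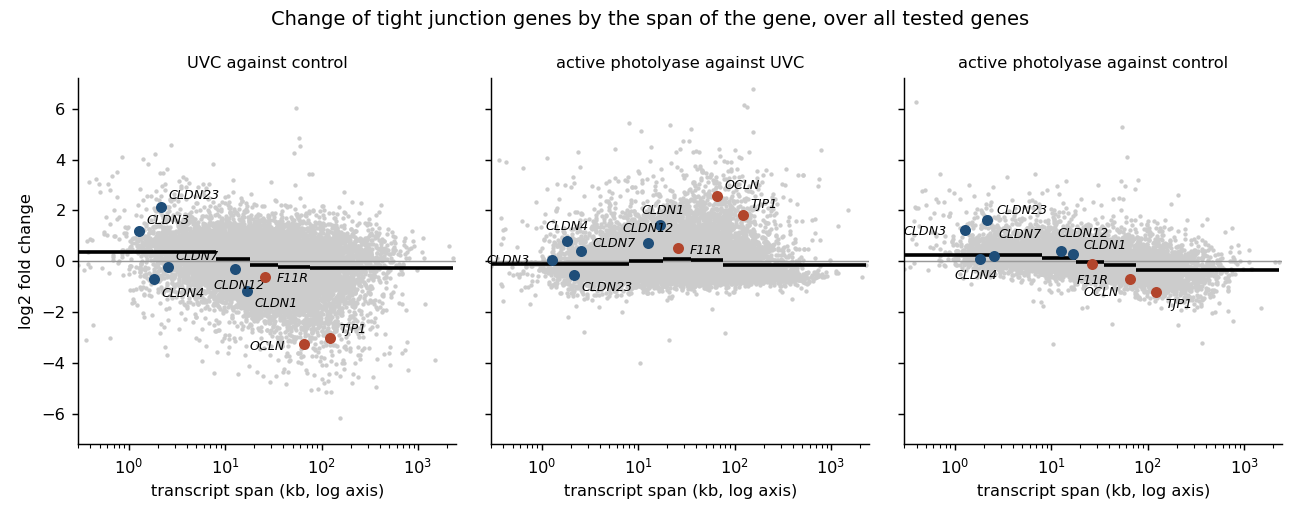
Log2 fold change (y axis) against the span of the principal transcript (x axis, kb, log scale) for all tested genes (grey). Black lines are medians of quintiles of span, blue points the claudins and red points OCLN, TJP1 and F11R. OCLN and TJP1 lie far below the median of their quintile for UVC against control, and CLDN4 and CLDN1 also lie below theirs.

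CLDN3 and CLDN4 are neighbours on chromosome 7, with start sites 60.7 kb apart, yet after UVC CLDN3 rose and CLDN4 fell. Their promoter windows (250 bases before the start to 50 after it, RefSeq, GRCh38.p14) are shown because the pair split, and that of OCLN because it fell most. Windows were searched on both strands for AACCNGTT (grainyhead factors), CACCTG (the E-box bound by snail and ZEB factors), TGACTCA (AP-1), GGGCGG (SP1) and TATAAA, and matches are in capitals, with overlapping matches run together.
CLDN3, chr7:73770221-73770520, minus strand: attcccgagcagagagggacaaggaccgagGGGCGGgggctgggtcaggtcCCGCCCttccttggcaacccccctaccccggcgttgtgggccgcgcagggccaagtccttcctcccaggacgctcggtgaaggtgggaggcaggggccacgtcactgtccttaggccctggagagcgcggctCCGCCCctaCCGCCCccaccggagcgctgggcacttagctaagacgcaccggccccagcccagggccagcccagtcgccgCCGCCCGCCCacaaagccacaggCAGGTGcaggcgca
CLDN4, chr7:73830746-73831045, plus strand: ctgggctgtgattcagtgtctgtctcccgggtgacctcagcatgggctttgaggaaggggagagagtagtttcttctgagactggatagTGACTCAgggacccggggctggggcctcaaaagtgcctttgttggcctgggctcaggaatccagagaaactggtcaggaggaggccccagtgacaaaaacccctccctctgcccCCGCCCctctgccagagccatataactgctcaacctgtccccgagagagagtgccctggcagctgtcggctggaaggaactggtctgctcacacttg
OCLN, the upstream of 2 windows, chr5:69492297-69492596, plus strand: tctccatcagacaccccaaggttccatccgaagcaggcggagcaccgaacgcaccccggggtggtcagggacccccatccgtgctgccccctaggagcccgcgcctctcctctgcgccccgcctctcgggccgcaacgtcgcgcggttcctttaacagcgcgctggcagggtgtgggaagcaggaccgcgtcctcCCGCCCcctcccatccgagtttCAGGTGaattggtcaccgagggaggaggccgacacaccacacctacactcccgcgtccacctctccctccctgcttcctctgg
CLDN3 held 6 matches to GGGCGG and 1 to CACCTG, CLDN4 1 to TGACTCA and 1 to GGGCGG, and this OCLN window 1 each to GGGCGG and CACCTG. None of the 3 held AACCNGTT or TATAAA. Of 35116 promoter windows, 45.0% held GGGCGG, 20.6% CACCTG, 4.95% TGACTCA, 1.73% AACCNGTT and 11.5% TATAAA. Windows of 7 members were found and searched, and these letters are no evidence of binding.

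The genes whose pattern over the 6 libraries lay closest to each member were taken as those with the smallest root mean square difference of log2(scaled cRPKM + 1) after each gene's own mean was subtracted, among 7912 tested genes with a mean of at least 5 cRPKM. For TJP1 the closest was CAB39 (0.036), with log2 fold changes of -2.90, 1.71 and -1.19 in the 3 comparisons, followed by RASA2 (0.043). For OCLN they were SGMS2 (0.055) and TNFRSF21 (0.062). For CLDN1 they were AVPI1 (0.035) and RNF103 (0.040), for CLDN4 KLK10 (0.030) and MUL1 (0.040), for CLDN7 AAMP (0.019) and UAP1L1 (0.022), and for F11R C1orf198 (0.010) and TMEM127 (0.012). For CLDN12 they were EMG1 (0.037) and PRSS8 (0.037), for CLDN3 HHLA3 (0.059) and PTGER4 (0.068), and for CLDN23 SERINC4 (0.093) and ENSG00000203813 (0.094), a gene with no symbol here. Within the list, the closest pairs were CLDN7 with CLDN12 (0.104) and CLDN4 with F11R (0.135), and TJP1 lay closest to OCLN (0.301).

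Other genes of the junction, taken as whole lists of names, were counted beside the members. Of 61 found among 5 tight junction lists, 42 were tested. After UVC 15 were higher, 22 lower and 5 not called (median -0.15), beside 42.5% higher and 43.1% lower of all tested genes. With library totals 24 were higher and 16 lower (median 0.27), beside 59.5 and 29.7%. For active photolyase against UVC 18 were higher and 17 lower (median 0.04), beside 39.2 and 39.9%. With library totals these were 15 and 22, beside 27.9 and 58.2%. For active photolyase against control 9 were higher and 20 lower (median -0.11), beside 33.0 and 32.9%. With library totals these were 15 and 14, beside 43.8 and 23.9%. Without active-photolyase replicate 1, 5 were higher with TMM factors. Each value named below was called by edgeR at an adjusted p of at most 0.0399, unless it is said not to be.

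Among 16 other claudins found, 6 reached the filter, and all of these but CLDN8 had at most 4.89 deposited cRPKM in any library. CLDN8, a barrier-forming claudin of kidney and other epithelia, was the highest. It had 13.4 and 11.2 scaled cRPKM with active photolyase, 23.3 and 23.7 after UVC and 9.37 and 8.38 in control, so that it rose after UVC (1.40 ± 0.08) and was lower with active photolyase than after UVC (-0.94 ± 0.08). After UVC 4 of the 6 were higher and 1 lower (median 1.15), beside 42.5 and 43.1% of all tested genes. CLDN6, an embryonic claudin, had 1.21 and 1.15 after UVC against 0.113 and 0.181 in control (2.98 ± 0.25), and CLDN17 rose (1.82 ± 0.24). CLDN14 was at -0.82 ± 0.24, a call lost with library totals (-0.41) and without UVC replicate 1 or control replicate 1 (-1.14 to -0.54 over the libraries left out). Against control, all 6 were higher with active photolyase (median 0.76), or 4 to 6 on leaving out a library, beside 33.0% of all tested genes. CLDN6 was at 3.30 ± 0.24, CLDN14 at 1.57 ± 0.18 and CLDN8 at 0.47 ± 0.08. CLDN14 and CLDN16 passed the filter only with the help of their active-photolyase libraries, and CLDN6 only through the irradiated groups. Their higher values in those groups are thus in part set by the filter. For active photolyase against UVC, CLDN14 (2.39 ± 0.20) and CLDN16 (0.70 ± 0.15) were higher. CLDN17 (-0.88 ± 0.21) and CLDN15 (-0.33 ± 0.14) were lower, and both of these calls were lost without UVC replicate 1, that of CLDN15 also without active-photolyase replicate 2.

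Of the other membrane proteins, MARVELD2 (tricellulin, a relative of occludin at tricellular contacts) and LSR (angulin-1, which recruits it) shared the direction of OCLN. MARVELD2 had 17.8 and 17.6 scaled cRPKM with active photolyase, 8.45 and 7.49 after UVC and 19.8 and 20.1 in control (UVC against control -1.33 ± 0.07, active photolyase against UVC 1.15 ± 0.07). LSR was at -0.86 ± 0.05 and 0.81 ± 0.05 in these comparisons. ILDR1, a relative of LSR, went the other way, at 1.36 ± 0.15 after UVC and -0.95 ± 0.14 for active photolyase against UVC. It had 0.734 and 0.648 scaled cRPKM with active photolyase, 1.30 and 1.38 after UVC and 0.496 and 0.543 in control. ILDR1 passed the filter only through its UVC libraries, so its higher values there are in part set by the filter. CXADR, the coxsackievirus and adenovirus receptor, also went the other way (0.30 ± 0.06 and -0.46 ± 0.06). MARVELD3 was higher after UVC (0.29 ± 0.08). CRB3, a polarity protein, was at -0.20 ± 0.07 after UVC with TMM factors and at 0.22 with library totals, and the call with TMM factors was lost without UVC replicate 2 or control replicate 1. It was at 0.35 ± 0.07 for active photolyase against UVC, a call lost with library totals (0.04). Of the 6 tested, 3 were higher, ILDR1 among them, and 3 lower after UVC (median 0.05), beside 42.5 and 43.1% of all tested genes. Against control with active photolyase, MARVELD2 (-0.17 ± 0.06), CXADR (-0.16 ± 0.06) and ILDR1 (0.41 ± 0.16) were called, and each of these calls was lost on leaving out a library, in 3 of 4 cases a gene, and those of MARVELD2 and CXADR also with library totals (-0.06 and -0.05).

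Scaffolds other than TJP1 split. TJP3, a relative of TJP1, moved in the opposite direction to TJP1, with 13.3 and 12.9 with active photolyase, 22.6 and 23.1 after UVC and 12.8 and 12.02 in control (0.88 ± 0.05 after UVC and -0.80 ± 0.05 for active photolyase against UVC). AFDN (afadin, which links nectins to actin) and the angiomotin relative AMOTL2 fell after UVC (-2.66 ± 0.06 and -1.69 ± 0.06) and were higher with active photolyase than after UVC (1.43 ± 0.06 and 1.40 ± 0.06). PATJ (0.47 ± 0.06) and PARD6A (0.88 ± 0.13), of the polarity complexes, rose after UVC, and PATJ was lower with active photolyase than after UVC (-0.44 ± 0.06). PARD3, a polarity scaffold, was lower with active photolyase than after UVC (-0.63 ± 0.05) and than in control (-0.77 ± 0.05), as was AFDN against control (-1.23 ± 0.06). Of 16 tested, 4 were higher and 10 lower after UVC (median -0.79), beside 42.5 and 43.1% of all tested genes. For active photolyase against UVC these were 8 and 5 (median 0.27), beside 39.2 and 39.9%. For active photolyase against control they were 0 and 9 (median -0.20), beside 33.0 and 32.9%. Library totals gave 3 and 6 there, beside 43.8 and 23.9%.

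Of 9 tested regulators bound to the junction, 2 were higher and 6 lower after UVC, beside 42.5 and 43.1% of all tested genes. The guanine nucleotide exchange factors ARHGEF2 (-2.59 ± 0.05) and ARHGEF18 (-2.32 ± 0.05) fell after UVC and were higher with active photolyase than after UVC (2.16 ± 0.05 and 1.88 ± 0.05). ARHGAP17, a GTPase-activating protein, was at -1.02 ± 0.07 and 0.65 ± 0.07. RAB13, a GTPase of junction traffic, was higher after UVC (0.96 ± 0.06), lower with active photolyase than after UVC (-0.41 ± 0.06) and above control with active photolyase (0.55 ± 0.06). SYMPK (symplekin) was at 0.37 ± 0.06 and -0.45 ± 0.06 in the first pair of comparisons. Against control with active photolyase, ARHGEF18 (-0.44 ± 0.05), ARHGEF2 (-0.42 ± 0.05) and ARHGEF11 (-0.49 ± 0.06) were lower, and PRKCZ was lower against UVC (-0.32 ± 0.06).

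EPCAM, which binds claudin-7, changed little, at 87.0 ± 2.06 scaled cRPKM after UVC and 80.1 ± 2.39 in control (SD, n = 2 each), and its calls (0.12 ± 0.05, and -0.14 ± 0.05 for active photolyase against UVC) were lost without UVC replicate 2, among other libraries. The membrane protease ST14 (matriptase), which cleaves EPCAM, fell after UVC to 97.2 and 96.9 against 471 and 449 in control (-2.24 ± 0.05), and with active photolyase it had 268 and 265 (1.46 ± 0.05 against UVC and -0.79 ± 0.05 against control). Its inhibitors differed, with SPINT1 lower after UVC (-0.60 ± 0.06) and SPINT2 higher (0.26 ± 0.05). Against UVC, SPINT2 was lower with active photolyase (-0.20 ± 0.05), while SPINT1 was at 0.23 ± 0.06 with TMM factors and at -0.07, not called, with library totals. SPINT1 stayed below control with active photolyase (-0.36 ± 0.06).

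The genes of the adherens junction, the belt just below the tight junction, moved in 1 direction in each comparison with TMM factors. With library totals CTNNA1 was at -0.08, not called, for active photolyase against UVC. Of 10 tested, 10 were lower after UVC (median -1.50), beside 43.1% of all tested genes. With active photolyase 10 were higher than after UVC (median 1.00, with 7 by library totals), beside 39.2% of all tested genes. Against control, 10 were lower with active photolyase (median -0.71, with 8 by library totals), beside 32.9% of all tested genes. E-cadherin (CDH1) had 203 and 211 scaled cRPKM with active photolyase, 79.8 and 81.6 after UVC and 369.6 and 385 in control, which gave -2.23 ± 0.06 after UVC, 1.36 ± 0.05 for active photolyase against UVC and -0.87 ± 0.05 for active photolyase against control. The actin linker vinculin (VCL, -1.69 ± 0.05) and NECTIN2 (-1.75 ± 0.05) fell after UVC. Plakoglobin (JUP, 1.23 ± 0.06) and beta-catenin (CTNNB1, 0.99 ± 0.05) were higher with active photolyase than after UVC. Against control with active photolyase, VCL (-1.29 ± 0.05) and alpha-catenin (CTNNA1, -0.88 ± 0.05) stayed low.

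Transcription factors known to act on epithelial junction genes went both ways, with 5 of 13 higher and 7 lower after UVC (median -0.40). Of all tested genes 42.5% were higher and 43.1% lower. The snail factors, which repress claudin, occludin and E-cadherin genes in other epithelial cells, rose. SNAI1 had 21.6 and 21.9 scaled cRPKM with active photolyase, 30.7 and 28.5 after UVC and 8.92 and 8.30 in control (1.78 ± 0.06 after UVC and 1.34 ± 0.06 for active photolyase against control), and SNAI2 was at 0.82 ± 0.05 and 0.67 ± 0.05 in these comparisons. KLF4, needed for the epidermal barrier in mice, also rose (0.98 ± 0.05 and 0.94 ± 0.05). GRHL3, a grainyhead factor of the barrier, had 30.7 and 33.2 with active photolyase, 4.94 and 4.67 after UVC and 29.8 and 29.2 in control (-2.62 ± 0.06 after UVC and 2.73 ± 0.06 for active photolyase against UVC). KLF5 (-2.05 ± 0.05 and 2.05 ± 0.05) followed the same course, and TP63, the master factor of stratified epithelia, fell after UVC (-1.67 ± 0.06) and stayed below control with active photolyase (-0.62 ± 0.06). TFAP2C was higher with active photolyase than after UVC (1.77 ± 0.06), and SNAI1 (-0.44 ± 0.06), ELF3 (-0.35 ± 0.06) and GRHL2 (-0.38 ± 0.07) were lower. GRHL1 (-0.92 ± 0.08) and GRHL2 (-0.45 ± 0.07) were lower with active photolyase than in control.

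**Figure D5:**
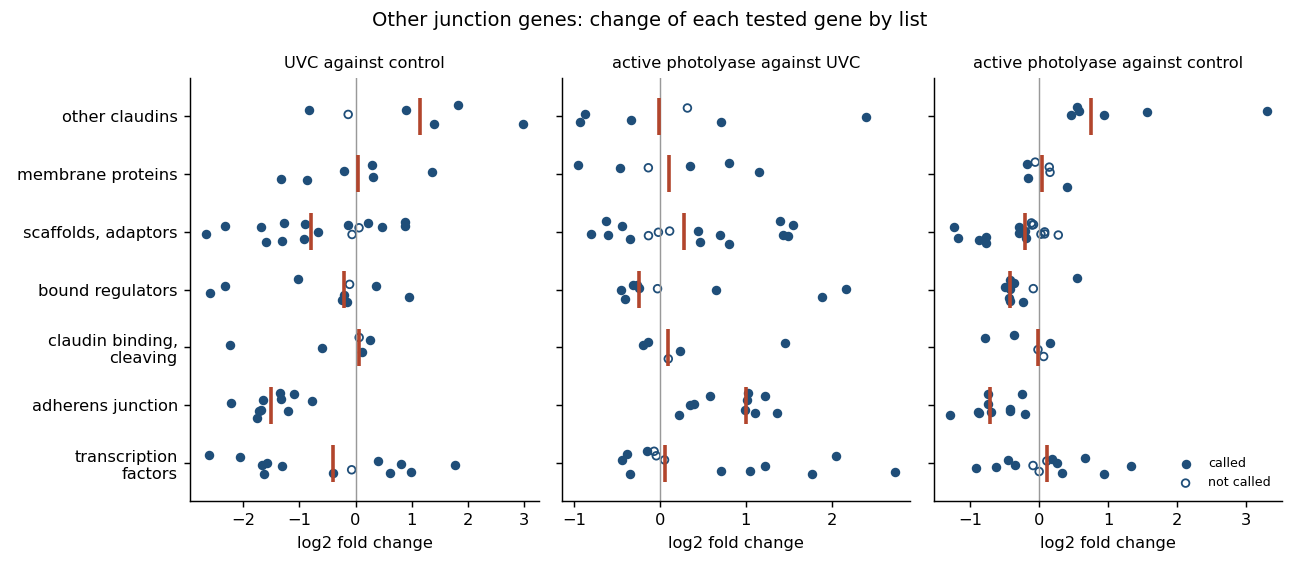
Log2 fold change (x axis) of each tested gene of 7 lists that are not members, in the 3 comparisons, with the lists running down the page. Filled points were called by edgeR, open points were not, and red lines are list medians. All 10 adherens junction genes lie below 0 for UVC against control and above 0 for active photolyase against UVC. For the latter, library totals put CTNNA1 at -0.08, not called.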

How the data were processed

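RNA of 6 HaCaT libraries was sequenced. Alignment was with Bowtie to hg19, per the submitters' processing notes; sources used here give no aligner version, counting rule, strand setting or annotation. For each gene the authors deposited a read count, in whole numbers, and a corrected RPKM (cRPKM), which the values show to be that count over an effective length and the library's total. Of 19847 genes, 354 had no value, and 18913 of the rest were given a symbol by their Ensembl identifier.

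Counts were tested with edgeR 4.0.16 (R 4.3.3, quasi-likelihood F test, TMM factors, 3 group means fitted to all 6 libraries, Benjamini and Hochberg adjustment over 11926 genes, call under 0.05). TMM factors were 0.954 and 0.957 with active photolyase, 1.18 and 1.18 after UVC and 0.887 and 0.885 in control. An SE is the fold change over the square root of its F statistic. The filter was 1 cRPKM in at least 2 libraries. In simulated UVC and control counts of 11926 genes, 50 changed at each size, the test recovered 94% of the 1.5-fold and 74% of the 1.25-fold ones. Only 200 genes were changed there, up and down alike, while most genes were called in the data. The simulation therefore cannot speak for changes whose sign depends on the scaling. Replicates differed by more than sampling noise (chi-square per degree of freedom 5.59 to 24.2). Members and lists were chosen with earlier results of these data known. From each other list, the genes named per comparison are the called ones of smallest p, up to 3 in each direction; a few that the rule names are not reported here. The alternatives were library totals, DESeq2 1.42.0 and its size factors, limma 3.58.1 on log2(cRPKM + pseudocount) with pseudocounts of 0.1, 1 and 2, no filter, a filter of 5 cRPKM, a replicate block and each library left out.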

Additional observations from a re-analysis of the deposited data

How the results depend on the processing

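Of the members' changes recomputed under all alternatives, 347 kept their direction and side of the threshold, 8 lost and 8 gained a call, and 12 reversed. The 12 came with library totals or with limma on deposited cRPKM, which keeps that scaling: CLDN7 for UVC against control (0.20 under each), CLDN12 for UVC against control (0.10 with library totals, and 0.086, 0.10 and 0.075 at pseudocounts of 1, 0.1 and 2) and CLDN3 for active photolyase against UVC (-0.26 with library totals, and -0.22, -0.26 and -0.18). Members called lower for active photolyase against UVC then numbered 2 under each of them. With a filter of 5 cRPKM, CLDN3 was not tested. Of the 8 members left, 1 was higher and 5 lower for UVC against control, and 2 changes of members lost their call. Of the other tight junction genes, 24 were higher for UVC against control with library totals and 23 with limma at every pseudocount. For active photolyase against control, 15 were higher with library totals, 14 with limma at every pseudocount and 4 with a filter of 5 cRPKM, and leaving out a library gave 5 to 9. The cause was not tested. The claudin mean minus that of OCLN, TJP1 and F11R was 0.63 with active photolyase and -0.67 in control at a pseudocount of 0.1, and 0.72 and -0.37 at a pseudocount of 2. Without F11R it was 1.59 with active photolyase, 3.14 after UVC and 0.14 in control, and without OCLN 0.45, 1.05 and -0.71 in the same order. Without CLDN3 and CLDN23, an alternative added after seeing the data, it was 2.24 with active photolyase, 2.94 after UVC and 1.36 in control.

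Replicate numbers showed no strong pairing of the samples. Deviations of same-numbered libraries correlated at -0.03 between UVC and control, 0.13 between active photolyase and UVC and -0.05 between active photolyase and control. With 2 libraries a group, such low values cannot exclude a shared culture or batch. With a replicate block, 2 members were higher and 7 lower for UVC against control. Against UVC, active photolyase then had 7 members higher and 1 lower, and against control 5 higher and 2 lower. These counts were the same without the block. With 2 libraries a group, no library could be tested as standing apart, and CLDN3, with 117 to 334 reads, had the largest SE of the members.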
